A study of Mus musculus with 8 samples.

Results

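The genes described here encode the 5 subunits of the transcription factor NF-kB (Nfkb1, Nfkb2, Rel, Rela and Relb) and 5 proteins of the IκB kinase group (Chuk, Ikbkb, Ikbkg, Ikbke and Tbk1). They were chosen by name, and the values are those of the probe sets whose number is the Entrez gene number of a member. All 10 genes were found among the 24570 measured, with 1 probe set each, so isoforms of a gene share a value. Affymetrix whole-transcript arrays were hybridised with total RNA of primary mouse bone marrow-derived macrophages, 4 arrays for cells given hepcidin at 10 µg/ml for 1 h and 4 for cells given PBS. Hepcidin, a peptide hormone made mainly in the liver, acts by binding ferroportin, through which cells export iron. Bone marrow of wild-type mice aged 8 to 10 weeks was cultured for 7 days with L cell-conditioned medium, which supplies the growth factor M-CSF, and reseeded at 150000 cells per well before treatment, so cells of both groups had serum and M-CSF. The labels name no strain and do not say whether the numbers 1 to 4 in both groups stand for animals or cultures, so the p-values reflect the spread between these 8 samples alone, and that spread may be technical.

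NF-kB is a family of dimeric transcription factors that share a DNA-binding Rel homology region. Rela, Rel and Relb carry an activation domain, whereas Nfkb1 and Nfkb2 encode the precursors p105 and p100, from which p50 and p52 are made. In resting macrophages the dimers are held in the cytoplasm by IκB proteins. In the canonical pathway the kinase IKKβ (Ikbkb), bound to the scaffold NEMO (Ikbkg), phosphorylates IκB and so marks it for degradation. In the alternative pathway IKKα (Chuk) phosphorylates p100, which releases dimers of RelB with p52. IKKε (Ikbke) and TBK1 are related kinases best known for activating IRF3 after Toll-like receptor or nucleic acid signals. Control of the subunits and kinases by release, phosphorylation and degradation of protein is not seen in mRNA levels, which are all that was measured here.

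The labelled cell type was checked on marker genes. The 9 measured macrophage markers, of 10 listed, averaged 11.08 to 11.47 on the hepcidin arrays and 10.98 to 11.47 on the PBS arrays (log2 value), and all 9 lay above 5.60, the 90th percentile of 25 background markers, taken from endothelium and from B, T and NK cells. All 10 NF-kB and IKK genes lay above that level too, with means of 7.65 to 10.3 with hepcidin and 7.23 to 10.3 with PBS. Arrays differed more by number than by treatment. Principal component 1, with 36.4% of the variance, separated both arrays numbered 1 from the rest. Same-numbered arrays shared deviations from their group means (r = 0.35 to 0.55 across genes, which are not independent replicates), so each result is also given by pair of arrays with the same number. Probe sets differ in their affinity for RNA, so the log2 levels of different genes were not ranked against each other.

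Of the NF-kB and IKK genes, the subunit genes Relb and Nfkb2 and the kinase gene Ikbke had the largest differences between hepcidin and PBS, with log2 changes (hepcidin minus PBS) of 0.42, 0.39 and 0.29. In limma, 0 of the 10 members had an adjusted p under 0.05. At an unadjusted p under 0.05 there were 3 members with a higher hepcidin mean, namely these genes, and 0 with a lower one. Across all 24570 genes the adjusted threshold was passed by 0%, and an unadjusted p under 0.05 was found for 1.32% in the higher and 1.51% in the lower direction. All 10 members had a higher mean with hepcidin, against 50.5% of all genes. Their median change was 0.12, against 0.0011 for all genes. The changes of Rela, Chuk, Ikbkb and Tbk1 were 0.03, 0.0080, 0.03 and 0.0060, each smaller than its SE. Under other settings of the analysis these 4 turned sign in 2, 5, 1 and 5 cases, so their direction is not settled. In a bulk sample, fewer cells of a type and less RNA per cell cannot be told apart.

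**Figure D1:**
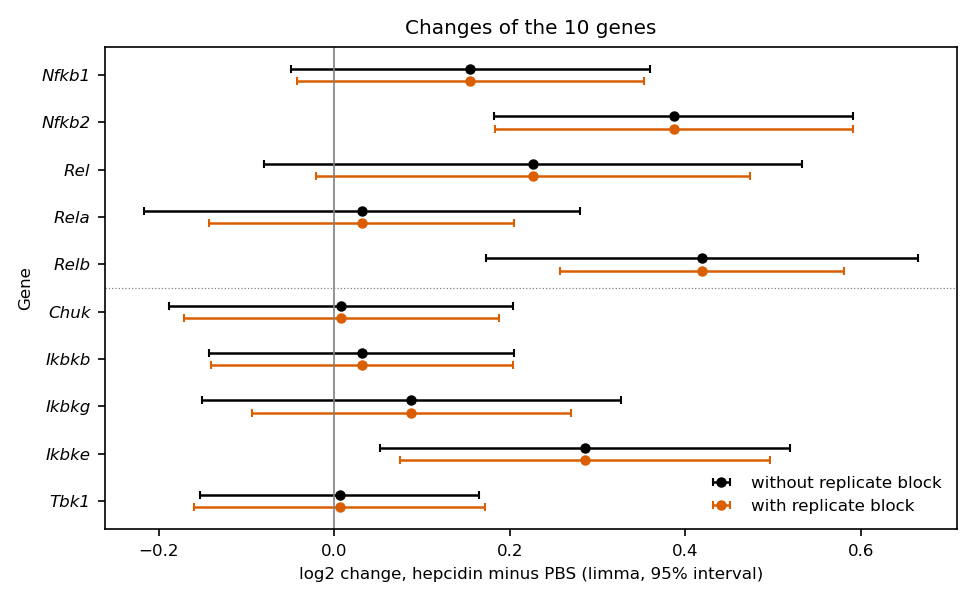
Log2 change of each gene, hepcidin minus PBS, with the 95% confidence interval from limma, without the replicate number as a block (black) and with it (orange). The subunit genes are above the dotted line and the IKK genes below it. The intervals of Nfkb2, Relb and Ikbke lie above 0 in both fits, and those of the other 7 genes include 0.

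Relb encodes the subunit that pairs with p52 in the alternative pathway, and its gene is itself a target of NF-kB. Its log2 values were 7.89, 7.48, 7.65 and 7.57 on hepcidin arrays 1 to 4, against 7.42, 7.07, 7.20 and 7.23 on PBS arrays 1 to 4. The lowest hepcidin array, number 2, lay above the highest PBS array, number 1, so the groups did not overlap. The means were 7.65 ± 0.18 with hepcidin and 7.23 ± 0.15 with PBS (SD, n = 4 each), a ratio of 1.34 with a 95% interval from 1.13 to 1.59. In limma the change of 0.42 ± 0.11 (SE) had an adjusted p of 1.00 over all genes and an unadjusted p of 0.00358. With the replicate number as a block the SE was 0.07 and the adjusted p 0.46, the lowest of any member under any setting tried. The pair differences were 0.47, 0.42, 0.45 and 0.33 for numbers 1 to 4. Number 2 was the lowest and number 1 the highest array in both groups, so the arrays of both groups had the same order at the extremes.

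Nfkb2 encodes p100, which acts as an IκB-like inhibitor until it is processed to p52. Its log2 values were 7.79, 7.56, 7.78 and 7.57 on hepcidin arrays 1 to 4, against 7.22, 7.20, 7.32 and 7.43 on PBS arrays 1 to 4. Here too all hepcidin arrays lay above all PBS arrays. The means were 7.68 ± 0.13 with hepcidin and 7.29 ± 0.10 with PBS (SD, n = 4 each), a ratio of 1.31 with a 95% interval from 1.13 to 1.51. The change of 0.39 ± 0.09 (SE) had an unadjusted p of 0.00179 in limma, which was number 22 of 24570 in order of size, and an adjusted p of 1.00. The adjusted p was 0.79 with the block. The pair differences of 0.57, 0.37, 0.46 and 0.15 were all above 0, the smallest in number 4, where the PBS array was the highest of its group. Nfkb2 and Relb were thus the 2 of 10 members whose groups did not overlap with hepcidin higher, as was true of 0.838% of all genes.

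Promoter sequence is shown because Nfkb2 and Relb are known targets of NF-kB. The RefSeq table of mouse promoters (GRCm38.p6), with 250 bases before and 50 bases after an annotated start, held 7 of the 10 genes. Nfkb1, Relb and Ikbkb were the other 3. The κB motif was searched as GGGA, any 4 bases and CC, on both strands, with letters that match on both strands counted once. It occurred in 20.7% of the 32851 windows in the table, and in at least 1 window of 4 of the 7 genes, against 22.9% of all 27025 genes, where a gene with several windows has more chances to hold it. Nfkb2 had 3 windows, each with 2 matches. The first lies at chr19:46304487-46304786 and the second at chr19:46305445-46305744, both on the plus strand. In the first the matches begin 39 and 10 bases before the start, and in the second 236 bases before it and at base 11 of the transcript, a match that the third window also holds. Both windows are shown 5′ to 3′ with the matches in capitals.
Nfkb2 first start: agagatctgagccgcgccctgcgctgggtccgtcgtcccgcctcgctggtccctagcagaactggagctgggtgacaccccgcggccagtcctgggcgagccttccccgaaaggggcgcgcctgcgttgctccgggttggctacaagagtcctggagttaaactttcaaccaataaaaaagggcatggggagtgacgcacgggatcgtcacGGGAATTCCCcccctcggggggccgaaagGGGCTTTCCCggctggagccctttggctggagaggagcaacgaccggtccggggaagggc
Nfkb2 second start: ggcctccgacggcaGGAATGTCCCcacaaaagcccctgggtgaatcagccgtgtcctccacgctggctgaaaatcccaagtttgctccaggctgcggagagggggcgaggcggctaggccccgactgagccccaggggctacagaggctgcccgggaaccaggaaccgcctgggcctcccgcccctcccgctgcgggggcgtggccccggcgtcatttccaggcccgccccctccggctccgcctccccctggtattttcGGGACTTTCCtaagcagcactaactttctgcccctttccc

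Windows of 3 further genes are shown beside those of Nfkb2, with log2 changes of 0.23 for Rel, 0.03 for Rela and 0.29 for Ikbke. The windows of Chuk and Tbk1, which had the smallest changes, are not shown. Rel lies on the minus strand, with its window at chr11:23770920-23771219, and held 1 match, which fits the motif on both strands and begins 92 bases before the start. Rela, on the plus strand at chr19:5637291-5637590, held 1 match on the opposite strand that begins 217 bases before the start. Ikbke, on the minus strand at chr1:131279514-131279813, held none in this window, and its log2 change was the third largest of the members. Each is written 5′ to 3′ along the strand of its gene, again with matches in capitals.
Rel: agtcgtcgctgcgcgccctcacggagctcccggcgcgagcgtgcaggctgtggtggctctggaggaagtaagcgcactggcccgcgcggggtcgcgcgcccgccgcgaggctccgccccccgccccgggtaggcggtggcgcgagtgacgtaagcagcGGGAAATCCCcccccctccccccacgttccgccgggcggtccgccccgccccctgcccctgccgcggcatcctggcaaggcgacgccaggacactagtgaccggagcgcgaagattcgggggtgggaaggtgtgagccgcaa
Rela: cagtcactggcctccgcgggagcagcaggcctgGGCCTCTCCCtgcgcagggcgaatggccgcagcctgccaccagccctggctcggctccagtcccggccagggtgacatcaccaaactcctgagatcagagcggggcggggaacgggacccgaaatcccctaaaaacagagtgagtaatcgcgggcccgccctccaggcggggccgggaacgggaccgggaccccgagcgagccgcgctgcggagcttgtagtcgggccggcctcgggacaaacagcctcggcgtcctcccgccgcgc
Ikbke: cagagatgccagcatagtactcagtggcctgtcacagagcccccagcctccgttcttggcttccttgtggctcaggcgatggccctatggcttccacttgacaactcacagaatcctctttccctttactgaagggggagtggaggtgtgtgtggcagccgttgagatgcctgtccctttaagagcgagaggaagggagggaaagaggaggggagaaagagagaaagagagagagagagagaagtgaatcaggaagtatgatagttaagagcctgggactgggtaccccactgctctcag
A match describes letters and does not show that a factor binds. Chuk and Tbk1 also had no match in their single windows, and Ikbkg had 2 matches in 1 of its 4 windows. Among the 7 genes with a window, Nfkb2 had matches in all 3 of its windows and the largest change, at 0.39. Chuk and Tbk1, without a match, changed by 0.0080 and 0.0060, and Ikbke, also without one, by 0.29. Rel, Ikbkg and Rela, with 1, 2 and 1 matches, changed by 0.23, 0.09 and 0.03. For the pathway lists described below, the share of genes with a window that held a match is given before the median change. The IKK complex partners had 80% (4 of 5) and -0.02, and the IκB proteins 60% (3 of 5) and 0.70. The ubiquitin editing inhibitors had 50% and 0.07. The receptors, adaptors and kinases above IKK had 42.1% and 0.0013, and the early targets 35.3% and 0.27. In the remaining lists, shares were 22.2% to 27.3% and medians -0.03 to 0.03. Whether matches go with changes was not tested.

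Rel encodes c-Rel, an activating subunit abundant in lymphoid and myeloid cells. Its log2 values were 10.16, 9.92, 10.10 and 10.17 on hepcidin arrays 1 to 4, against 10.29, 9.74, 9.68 and 9.73 on PBS arrays 1 to 4. PBS array 1 stood apart and was above every hepcidin array, whereas the other 3 PBS arrays lay below all 4 hepcidin arrays. The means were 10.09 ± 0.12 with hepcidin and 9.86 ± 0.29 with PBS (SD, n = 4 each), and the change of 0.23 ± 0.14 (SE) had an adjusted p of 1.00 and an unadjusted p of 0.131 in limma. The pair differences were -0.13, 0.18, 0.42 and 0.43. Without PBS array 1 the change was 0.37, and without both arrays numbered 1 it was 0.35 ± 0.09 (SE), with an adjusted p of 1.00 and an unadjusted p of 0.00592 in limma. With those arrays left out, Rel, Nfkb2 and Relb were the 3 members whose groups did not overlap with hepcidin higher, against 3.67% of all genes. For Rel, the lower p and the lack of overlap follow from leaving out PBS array 1. It was the only PBS array above any hepcidin array, so these values are no support for a change of Rel.

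The arrays numbered 1 also differed in markers of macrophages and of other cells. The macrophage markers averaged 11.08 on hepcidin array 1 and 10.98 on PBS array 1. They averaged 11.40 to 11.47 on the other hepcidin arrays and 11.38 to 11.47 on the other PBS arrays. The 13 neutrophil and precursor markers averaged 4.62 on hepcidin array 1 and 4.78 on PBS array 1, against 5.61 to 5.99 on the other hepcidin arrays and 5.66 to 6.03 on the other PBS arrays. Of these 13 markers, 6 lay above the 90th percentile of the background markers. Their part in the level of Rel on PBS array 1 was not tested.

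**Figure D2:**
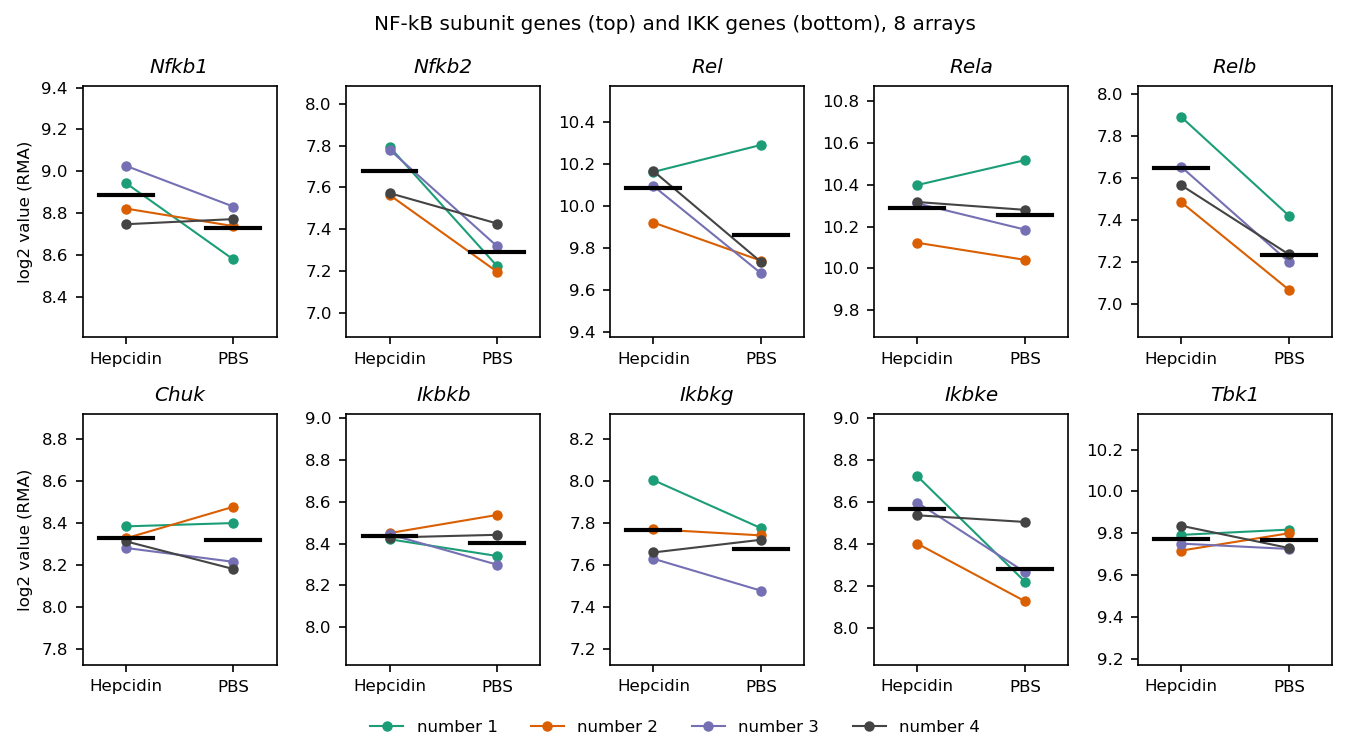
Log2 value of each gene on the 8 arrays, hepcidin on the left and PBS on the right, with lines joining arrays of the same number and black bars for the group means. Each panel spans the same range of log2 units. The 4 hepcidin points of Nfkb2 and Relb lie above the 4 PBS points, and PBS array 1 of Rel, at 10.29, lies above the other 3, at 9.68 to 9.74.

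Rela encodes p65, the main activating partner of p50 in the canonical pathway. It had 10.40, 10.12, 10.31 and 10.32 on hepcidin arrays 1 to 4, against 10.52, 10.04, 10.19 and 10.28 on PBS arrays 1 to 4 (log2 value). The groups overlapped almost entirely, and number 1 was the highest and number 2 the lowest array in both. The means were 10.29 ± 0.12 with hepcidin and 10.26 ± 0.20 with PBS (SD, n = 4 each). The change of 0.03 ± 0.11 (SE) had a 95% interval in limma from -0.22 to 0.28, and from -0.14 to 0.21 with the block. In these fits a Rela ratio above 1.21, or above 1.15 with the block, lay outside the interval, which leaves room for a change smaller than that.

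Nfkb1, the gene of p105 and p50, had 8.94, 8.82, 9.03 and 8.75 on hepcidin arrays 1 to 4, against 8.58, 8.74, 8.83 and 8.77 on PBS arrays 1 to 4 (log2 value). Hepcidin array 4 lay below PBS arrays 3 and 4, so the groups overlapped. The means were 8.88 ± 0.12 with hepcidin and 8.73 ± 0.11 with PBS (SD, n = 4 each). The change of 0.16 ± 0.09 (SE) had an adjusted p of 1.00 and an unadjusted p of 0.122 in limma, with a 95% interval from -0.05 to 0.36. The pair differences of 0.37, 0.08, 0.20 and -0.02 were largest in number 1, and the change was 0.08 without both arrays of that number. Nfkb1 encodes a precursor, as Nfkb2 does, and its mean change was the smaller of the 2, but their intervals overlap.

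Among the kinase genes, Ikbke had the largest change. Unlike the other IKK kinases, IKKε is known as an inducible kinase, made after stimulation with lipopolysaccharide or cytokines. Its log2 values were 8.72, 8.40, 8.60 and 8.54 on hepcidin arrays 1 to 4, against 8.22, 8.13, 8.27 and 8.50 on PBS arrays 1 to 4. PBS array 4 lay above hepcidin array 2, so the groups overlapped, while each hepcidin array was above the PBS array of its own number. The means were 8.56 ± 0.13 with hepcidin and 8.28 ± 0.16 with PBS (SD, n = 4 each), a ratio of 1.22 with a 95% interval from 1.04 to 1.43. The change of 0.29 ± 0.10 (SE) had an adjusted p of 1.00 and an unadjusted p of 0.0212 in limma, and an adjusted p of 0.91 with the block. The pair differences were 0.50, 0.28, 0.33 and 0.03. Without both arrays numbered 1 the change was 0.21 ± 0.12 (SE), with an unadjusted p of 0.104.

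Tbk1, the close relative of IKKε that is present without stimulation, showed little difference. It had 9.79, 9.72, 9.75 and 9.84 on hepcidin arrays 1 to 4, against 9.82, 9.80, 9.73 and 9.73 on PBS arrays 1 to 4 (log2 value). Its PBS values lay closer together than those of any other member, with an SD of 0.05 in both groups, and the groups overlapped. The change of 0.0060 ± 0.07 (SE) had a 95% interval in limma that corresponds to ratios of 0.90 to 1.12.

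Of the canonical kinase complex, Ikbkb, the gene of IKKβ, had 8.42, 8.45, 8.44 and 8.43 on hepcidin arrays 1 to 4, against 8.34, 8.54, 8.30 and 8.44 on PBS arrays 1 to 4. Its change was 0.03 ± 0.08 (SE), and the hepcidin values, with an SD of 0.014, lay inside the range of the PBS values. Chuk, the gene of IKKα, had 8.38, 8.33, 8.28 and 8.31 on hepcidin arrays 1 to 4, against 8.40, 8.48, 8.21 and 8.18 on PBS arrays 1 to 4. Its hepcidin values also lay inside the PBS range, and the change was 0.0080 ± 0.09 (SE). The 95% intervals of the ratio were 0.91 to 1.15 for Ikbkb and 0.88 to 1.15 for Chuk in limma. Ikbkg, the gene of the scaffold NEMO, lies on the X chromosome and had 8.01, 7.77, 7.63 and 7.66 on hepcidin arrays 1 to 4, against 7.78, 7.74, 7.48 and 7.72 on PBS arrays 1 to 4. Its change was 0.09 ± 0.11 (SE), and it was 0.0082 without hepcidin array 1, the highest of its group, and 0.02 without PBS array 3, the lowest of its group.

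The 5 subunit genes had a median log2 change of 0.23 and the 5 kinase group genes one of 0.03. In pairs 1 to 4 the mean over the subunit genes was 0.23, 0.23, 0.33 and 0.18, and the mean over the kinase group was 0.15, -0.0032, 0.14 and 0.04. The subunit mean was the larger in each of the 4 pairs, but neither group was uniform. Rela, a subunit gene, changed by 0.03, as the kinase gene Ikbkb did. The kinase gene Ikbke, at 0.29, changed more than Rel, Nfkb1 and Rela. Relb, Nfkb2 and Ikbke were higher with hepcidin in 4 of 4 pairs, as were 5.69% of all genes. With the block in limma, 3 of 10 members had an unadjusted p under 0.05 with a higher hepcidin mean, and 0 with a lower one, against 2.34% and 2.55% of all genes, and 0 had an adjusted p under 0.05, against 0.00407% of all genes. The members did not follow a shared order of pairs. Nfkb1, Nfkb2, Relb, Ikbkg and Ikbke had their largest difference in number 1 and their smallest in number 4, while Chuk, Tbk1 and Rel had their largest in number 4.

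**Figure D3:**
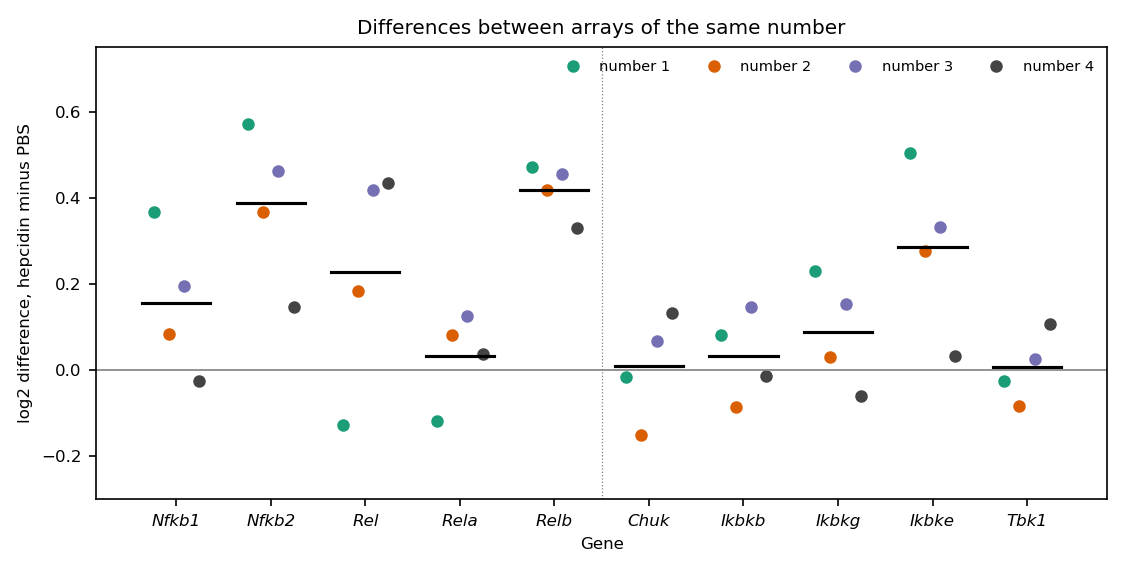
Log2 difference between the hepcidin and the PBS array of the same number, for each gene, with a black bar for the mean of the 4 differences. Points of Nfkb2, Relb and Ikbke are all above 0, from 0.03 to 0.57, and those of Relb lie closest together among these 3 genes, from 0.33 to 0.47.

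Whether members changed unequally was asked of 7 differences between genes on the same array, with exact two-sided permutation tests over the 70 ways to assign 4 of the 8 arrays to hepcidin. Relative to Rela, Relb was higher with hepcidin by 0.39 on the log2 scale, with pair values of 0.59, 0.34, 0.33 and 0.29. Nfkb2 was higher relative to Rela by 0.36, with pair values of 0.69, 0.29, 0.34 and 0.11. Both had an exact p of 0.0286, the smallest that 70 assignments can give, and a Benjamini-Hochberg adjusted p of 0.10 over the 7 tests, so neither passed after adjustment. The same change was 0.20 for Rel (exact p = 0.0571) and 0.12 for Nfkb1 (exact p = 0.514), with adjusted p-values of 0.12 and 0.60.

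Between kinases, Ikbke was higher with hepcidin by 0.28 relative to Tbk1, in 3 of 4 pairs, and by 0.25 relative to Ikbkb, in 4 of 4 pairs. Each had an exact permutation p of 0.0857 and an adjusted p of 0.12. Ikbkb relative to Chuk changed by 0.02 (exact p = 0.771). When assignments were limited to exchanges within a number, 16 in all, the smallest possible p was 0.125, which Relb and Nfkb2 relative to Rela and Ikbke relative to Ikbkb each had, so that design cannot reach 0.05.

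The genes whose 4 pair differences lay nearest to those of Relb, by root mean square distance among the 9560 other genes averaging 6 or more, were Junb, Slc2a6 and D730005E14Rik, at distances of 0.04, 0.06 and 0.08. Junb, which encodes a subunit of the transcription factor AP-1, had pair differences of 0.51, 0.42, 0.52 and 0.30. Those nearest to Nfkb2 were Kdm6b, Rmdn3 and D730005E14Rik, at 0.07, 0.08 and 0.09. Kdm6b, which encodes a histone H3K27 demethylase, was also nearest to Ikbke, at 0.04, followed by Rhbdf2 and Rmdn3, each at 0.07. The Kdm6b pair differences were 0.55, 0.33, 0.36 and 0.07. Distances over 4 pairs describe these arrays only.

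Other genes of the pathway were taken from 8 lists, in none of which a gene had an unadjusted p under 0.05 with a lower hepcidin mean in limma without the block. Proteins of the IκB family bind the dimers. All 6 of their genes had a higher mean with hepcidin, against 50.5% of all genes. In limma 4 had an unadjusted p under 0.05 in that direction, against 1.32% of all genes, and 0 an adjusted one. The median log2 change was 0.70, against 0.0011 for all genes. Nfkbiz and Nfkbie, IκB family genes that are themselves NF-kB targets, changed by 1.24 ± 0.15 and 0.79 ± 0.10 (SE), with an adjusted p of 0.0784 each in limma. Set beside them, the changes of Relb and Nfkb2 were smaller, at 0.42 and 0.39.

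Of 24 genes listed as early targets of NF-kB, 23 had a higher mean with hepcidin, against 50.5% of all genes. In limma 11 had an unadjusted p under 0.05 in that direction, against 1.32% of all genes, and 0 had an adjusted one. The median change was 0.27. With the block 14 had an unadjusted p under 0.05 in that direction, against 2.34% of all genes. With it 1 passed after adjustment, against 0.00407% of all genes. Some of the 24 genes had mean levels of 2.95 to 5.36, below 5.60, the 90th percentile of the background markers. The direction of change of such dim genes says little. Tnf, the gene of the cytokine that signals through IKK, changed by 1.28 ± 0.14 (SE), with an adjusted p of 0.0784 in limma. Irf1, an interferon-related transcription factor gene, changed by 0.43 ± 0.10. Its pair differences of 0.80, 0.36, 0.32 and 0.22 were largest in number 1 and smallest in number 4, as those of Nfkb2 were.

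The lists that act above the dimers had smaller medians. Among 25 receptors, adaptors and kinases above IKK, 13 had a higher mean with hepcidin, against 50.5% of all genes, and the median change was 0.0013. In limma 1 gene had an unadjusted p under 0.05, with a higher mean, against 1.32% of all genes. This was Birc3, which encodes the ubiquitin ligase cIAP2, at 0.34 ± 0.12 (SE), followed by the kinase gene Irak2 at 0.21 ± 0.11. Among 10 ubiquitin editing inhibitors the median was 0.07 and 2 genes had an unadjusted p under 0.05, Tnfaip3, the gene of the deubiquitinase A20, at 0.72 ± 0.19 and Tnip1, the gene of its partner ABIN-1, at 0.35 ± 0.14. In the alternative pathway list of 12 genes the median was -0.03, and the 2 genes with an unadjusted p under 0.05 were Traf3, which encodes the adaptor that keeps the pathway off, at 0.23 ± 0.09 and the receptor gene Cd40 at 0.26 ± 0.10. None of these genes passed over all genes.

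Outside the early targets, 4 list genes had an unadjusted p under 0.05 in limma only in the fit with the replicate number as a block, and they are named because of these values. Lower with hepcidin in 4 of 4 pairs were Traf5, the gene of a TNF receptor adaptor, at -0.18 ± 0.07 (SE with the block, unadjusted p 0.0316), and the cytokine gene Lta at -0.18 ± 0.07 (unadjusted p 0.0418). Higher on average were the IκB family gene Nfkbid at 0.35 ± 0.10 (unadjusted p 0.00982), in 4 of 4 pairs, and Irak2 at 0.21 ± 0.09 (unadjusted p 0.0402), in 3 of 4 pairs. Their adjusted p-values with the block were 0.97, 0.99, 0.86 and 0.99, so none passed over all genes. In that limma fit 5 IκB genes had an unadjusted p under 0.05, all higher. Among the receptors, adaptors and kinases there were 2 higher and 1 lower. The ubiquitin editing inhibitors had 2 higher, and the alternative pathway list had 2 higher and 1 lower. Across all genes the shares in that fit were 2.34% higher and 2.55% lower.

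In the remaining 3 lists no gene had an unadjusted p under 0.05 in limma, with or without the block. Across all genes the shares were 1.32% higher and 1.51% lower without the block, and 2.34% and 2.55% with it. In lists this short a count of 0 is near those shares. Of the genes that act with TBK1 and IKKε, 13 of 14 were measured, with a median change of 0.03, and those with the smallest p were Ifnb1 at 0.15 ± 0.08 (SE), at a level of 3.17 with hepcidin and 3.02 with PBS, below the background median of 3.86, and the adaptor gene Ticam1 at 0.15 ± 0.13. The 8 partners of the IKK complex had a median of -0.02, with Traf3ip2 at -0.10 ± 0.10 and the phosphatase gene Ppm1b at 0.09 ± 0.12. The 14 cofactors and modifiers of Rel proteins had a median of -0.01, with the protein kinase A gene Prkaca at 0.14 ± 0.11.

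**Figure D4:**
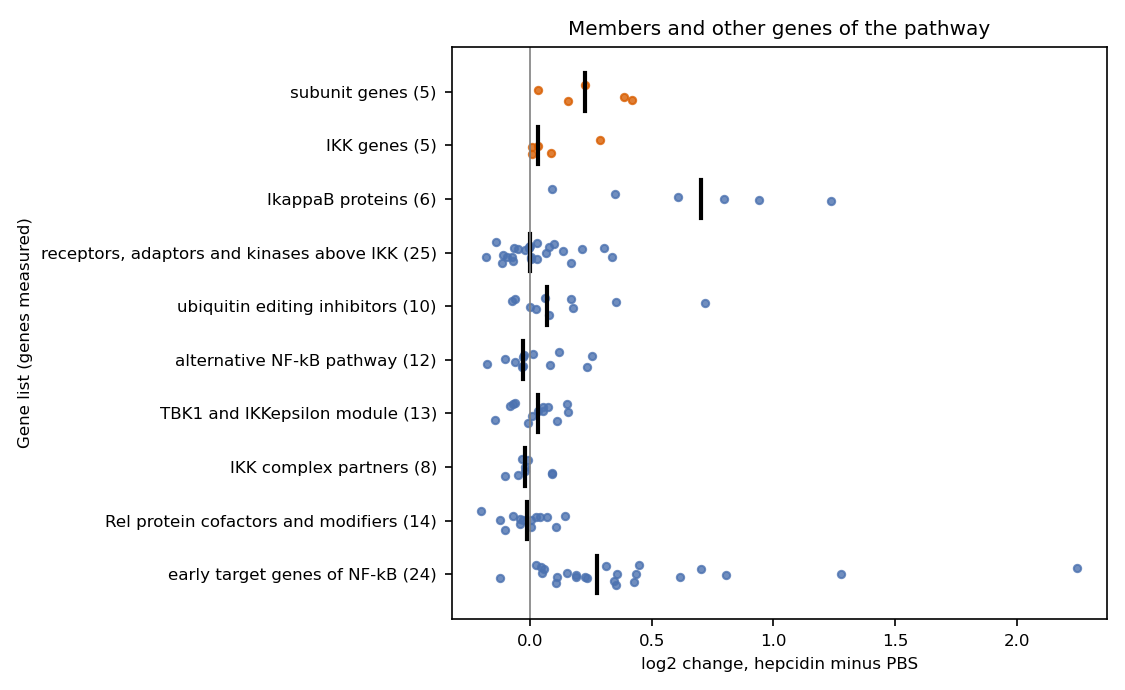
Log2 change, hepcidin minus PBS, of each gene in the subunit and IKK groups (orange) and in the 8 lists of other pathway genes (blue), with a black bar at the median and the number of genes measured in brackets. The medians run from -0.03 for the alternative pathway list to 0.70 for the IκB proteins, with 0.23 for the subunit genes and 0.03 for the IKK genes.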

How the data were processed

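Total RNA was hybridised to 1-colour Affymetrix whole-transcript arrays, and the submitters' processing notes name RMA and version 1.36.1 of affy for the deposited log2 values. RMA corrects background, equalises array distributions and summarises probes, which compresses ratios of dim genes. The number of arrays limits the precision. Of 24973 probe sets, 24015 were named by the platform annotation and 559 more, Nfkb1 and Chuk among them, by the RefSeq gene number that equals the probe set number. For 4 symbols the brightest probe set was kept, which left 24570 genes, with no filter on low values. Groups and numbers came from the sample titles.

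Genes were compared with limma 3.58.1 in R 4.3.3 (lmFit, eBayes), with Benjamini-Hochberg adjustment over all genes and a threshold of 0.05. The numbers pair the arrays by the titles and by the correlation of deviations (0.35 to 0.55 for the same number, -0.36 to 0.12 for different numbers), so fits with the number as a block stand beside the results. The fits were run on simulated data with known changes, each larger than that of any member. Recovery of changes as small as those of the members was therefore not checked. The members and lists were chosen with earlier results of these data known. All members are named, and for each list the 2 genes with the smallest unadjusted p, except 1 gene that is not reported here. For the 3 members with the largest change, the 3 genes nearest by pair differences are named. Alternatives covered normalization, filters, rows tested, variance models, array weights, the block, and leaving out arrays. The promoter windows of Rel and Ikbke were chosen after their values were seen. Figures were drawn with matplotlib 3.10.9.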

Additional observations from a re-analysis of the deposited data

Results flagged for a closer look

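Of 20 groups of 4 arrays checked (10 genes in 2 groups), 1 held an array far from the others, and chance gives about 1 in 20. Rel stood at 10.29 on PBS array 1, against 9.68 to 9.74 on the other PBS arrays.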

How the results depend on the processing

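No member passed an adjusted p of 0.05 in limma under any of the 21 other settings tried, in 20 of which Nfkb1 and Chuk were tested. The lowest adjusted p over these settings was 0.46 for Relb, 0.53 for Nfkb2, 0.83 for Ikbke and 0.89 for Rel. Relb kept a change of 0.34 to 0.48, Nfkb2 of 0.33 to 0.43, Ikbke of 0.21 to 0.36, Rel of 0.17 to 0.37 and Nfkb1 of 0.08 to 0.20. The replicate block changed no call of a member. Over all genes, 0 had an adjusted and 696 an unadjusted p under 0.05. These counts were 1 and 1203 with the replicate block, 5 and 1214 with the block as a random term, and 1 and 1337 with the block but without both arrays numbered 1. Unadjusted counts were 98 among genes with a mean of at least 6 and 184 among genes at or above the median level, where fewer genes were tested. Leaving out single arrays gave 0 to 2 genes with an adjusted p under 0.05, 601 to 762 at an unadjusted one, and 2 to 4 members at an unadjusted one, with 2 without hepcidin array 1 and without PBS array 2, and 4 without PBS array 1. Changes near 0 turned sign. Chuk was at -0.0052 with renewed quantile normalization and at -0.0049 with cyclic loess, and Tbk1 was at -0.0029 with cyclic loess. Leaving out single arrays gave -0.040 to 0.12 for Rela, -0.038 to 0.061 for Chuk, -0.0039 to 0.075 for Ikbkb and -0.015 to 0.025 for Tbk1. It gave -0.014 to 0.20 for Nfkb1 relative to Rela and -0.025 to 0.082 for Ikbkb relative to Chuk, which was -0.00082 without both arrays numbered 1. The cause of these turns was not tested. Restricting the test to genes of the platform annotation was added after seeing the data.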
